A study of Mus musculus with 38 samples.

Results

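The AP-1 family genes examined here were Jun, Junb, Jund, Fos, Fosb, Fosl2 and Batf. Every ChIP-seq peak was taken whose centre lay between 50 kb before and 50 kb after the body of one of these 7 genes (mm10, GENCODE M21). The 17 deposited peak lists held 359759 peaks, of which 561 lay in these windows. There were 124 around Junb, 129 around Fosb, 83 around Fos, 82 around Jund, 63 around Batf, 56 around Fosl2 and 24 around Jun. Where peaks of different lists were joined as soon as they overlapped, the windows held 121 sites.

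All cells came from Cas9-LP lines, lymphoid progenitors grown from the fetal liver of Ebf1-deficient mice that carry a Cas9 knock-in at Rosa26. The loss of Ebf1, which blocks the B lineage, and the Cas9 protein were thus shared by every group. LP cells were kept on OP9 stroma without Notch ligand, whereas Phase 1 and Phase 2 cells were kept on OP9-DLL4 stroma, which displays the Notch ligand Delta-like 4. In the paper, Phase 2 is the later stage, past commitment to the T lineage, and is reached after longer Notch stimulation than Phase 1. RUNX1, CTCF, Med12 and p300 were immunoprecipitated in LP and Phase 1. Notch1-IC, the cleaved intracellular domain of Notch1, was immunoprecipitated in LP, Phase 1 and Phase 2 with a mixture of 2 antibodies. Further cells received retroviral guides, and the factors measured in them were RUNX1 in LP with sgCont or sgCTCF, RUNX1 in Phase 1 with sgCont or sgMed12, and Med12 in Phase 1 with sgCont or sgCbfb (Cbfb is the binding partner of RUNX proteins). Each list combined 2 replicates, which the labels do not describe as separate cultures, into 1 set of reproducible peaks, so no value per replicate and no test between stages could be had. Of the 38 libraries, 34 stood behind the lists and the other 4 were inputs, which were not used here. The lists do not measure RNA or protein, so neither the expression of the AP-1 genes, nor the labelled stage of the cells, nor the loss of CTCF, Cbfb or Med12 was checked. The number of reads behind a peak was not used here. The whole lists ran from 152 peaks (Phase 1 Notch1-IC) to 49116 (Phase 1 p300), and the 4 RUNX1 lists from cells with guides held 874 to 2094.

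AP-1 is a dimer of basic leucine zipper proteins, in which a Jun protein pairs with another Jun or with a Fos protein and binds a short palindrome in promoters and enhancers. Fos, Fosb, Jun and Junb are textbook immediate-early genes that growth factor and antigen receptor signals switch on within minutes, whereas Jund is expressed more steadily. Batf lacks the activation domain of Fos proteins and pairs with Jun proteins, often beside IRF factors, in lymphocytes.

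The sequences at 6 sites are shown first, because the short lists of Notch1-IC and of RUNX1 in cells with guides placed peaks on 5 of them. The remaining one, 1.53 kb before Fos, was a RUNX1 site of Phase 1 alone. Each run holds 160 bases of the mm10 assembly around the centre of the Phase 1 RUNX1 peak (for Fosb at 6.66 kb, of the LP Notch1-IC peak), written on the strand of the gene, and all 6 are intergenic by the deposited annotation. Capitals mark matches on either strand to the RUNX core, TGTGGT or TGCGGT, and to the AP-1 string, TGAGTCA.
Jund, 3.43 kb before the start, chr8:70695439-70695598, plus strand: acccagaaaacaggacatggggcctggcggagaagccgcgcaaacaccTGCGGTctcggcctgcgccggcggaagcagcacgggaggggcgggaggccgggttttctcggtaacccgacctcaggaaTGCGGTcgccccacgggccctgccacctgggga
Fos, 18.5 kb before the start, chr12:85455301-85455460, plus strand: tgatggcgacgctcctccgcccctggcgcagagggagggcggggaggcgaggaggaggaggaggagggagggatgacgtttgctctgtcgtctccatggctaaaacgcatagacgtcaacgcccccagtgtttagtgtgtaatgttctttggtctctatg
Fos, 5.07 kb before the start, chr12:85468739-85468898, plus strand: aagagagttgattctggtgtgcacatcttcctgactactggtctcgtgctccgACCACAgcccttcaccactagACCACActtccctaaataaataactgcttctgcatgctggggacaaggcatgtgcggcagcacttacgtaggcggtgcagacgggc
Fos, 1.53 kb before the start, chr12:85472285-85472444, plus strand: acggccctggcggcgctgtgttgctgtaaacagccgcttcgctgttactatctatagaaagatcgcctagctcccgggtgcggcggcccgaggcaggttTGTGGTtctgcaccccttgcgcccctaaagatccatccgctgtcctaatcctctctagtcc
Fosb, 10.1 kb before the start, chr7:19320065-19320224, minus strand: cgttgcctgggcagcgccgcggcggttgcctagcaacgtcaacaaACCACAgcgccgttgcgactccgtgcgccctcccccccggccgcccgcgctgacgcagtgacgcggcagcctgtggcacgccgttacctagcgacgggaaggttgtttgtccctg
Fosb, 6.66 kb before the start, chr7:19316631-19316790, minus strand: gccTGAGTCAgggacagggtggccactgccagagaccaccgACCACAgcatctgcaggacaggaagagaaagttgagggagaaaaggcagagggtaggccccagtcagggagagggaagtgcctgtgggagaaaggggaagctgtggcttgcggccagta

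The run before Jund held the RUNX core at positions 49 and 128, counted from 1 at its 5′ end, and the run at 5.07 kb before Fos held it at positions 54 and 75. The run at 18.5 kb before Fos held neither string, although it was the highest-scored RUNX1 site of the Fos window in both stages. The run at 6.66 kb before Fosb was centred on the LP Notch1-IC peak, and its marked strings depend on that choice. The stretch searched around the centre of the Phase 1 RUNX1 peak there, at 6.6 kb, held 0 AP-1 strings and 0 RUNX cores. Around the centre of the LP RUNX1 peak it held 0 AP-1 strings and 1 RUNX core. A match is a description of the letters and no evidence of binding.

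The windows differed in how many peaks they held and in whose start those peaks lay nearest to. Fosb had 14 LP and 15 Phase 1 RUNX1 peaks and Junb 13 and 13, against medians of 3 and 4 over the windows of all 21938 protein-coding genes; 1.51% of the genes had as many LP RUNX1 peaks as Fosb or more. Jun was at the other end, with 1 LP and 2 Phase 1 RUNX1 peaks. Fos, Jund, Batf and Fosl2 lay between, with 6 to 8 RUNX1 peaks in LP and 7 to 9 in Phase 1. The windows of Junb, Fosb and Jund also held the starts of 9, 6 and 5 other protein-coding genes, that of Batf held 1, and those of Fos, Fosl2 and Jun held none. The deposited annotation assigned all 83 Fos peaks, 53 of 63 Batf peaks and 20 of 24 Jun peaks to the gene itself as the nearest start. This held for only 18 of 124 Junb peaks, 21 of 82 Jund peaks, 60 of 129 Fosb peaks and 13 of 56 Fosl2 peaks. A peak in these last windows is therefore a peak near the gene, and in those of Junb, Jund and Fosb it can be a peak at the promoter of another gene.

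**Figure D1:**
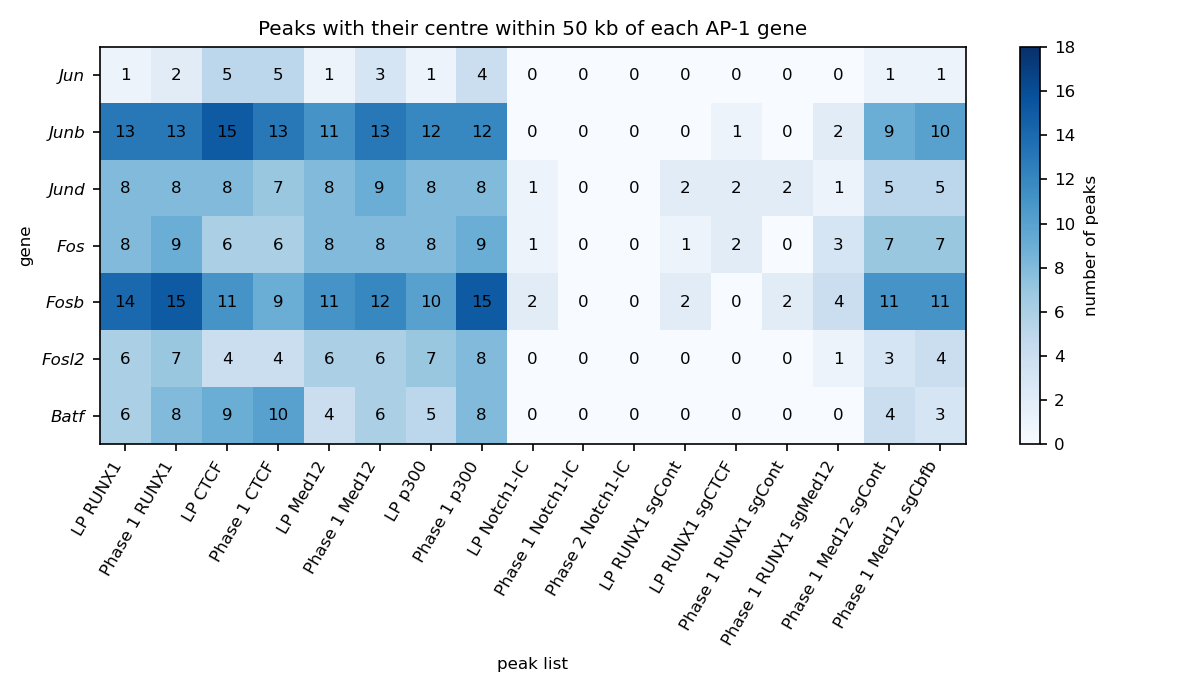
Number of peaks (colour and digits) with a centre within 50 kb of each gene (rows) in each of the 17 lists (columns). Junb and Fosb held the most RUNX1 peaks and Jun the fewest, and the Phase 1 and Phase 2 Notch1-IC columns were 0 for every gene.

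RUNX1 and p300 were listed within 1 kb of the start of all 7 genes in both LP and Phase 1. Med12 was listed there for 6 of 7 genes in LP, Batf being the exception, and for 7 of 7 in Phase 1. Over all 21938 protein-coding genes, 45.2% had such a RUNX1 peak in LP and 45.9% in Phase 1. The shares were 44.7% and 44.4% for Med12 and 46.6% and 47.2% for p300. CTCF was listed within 1 kb of the start of Fosb and Fosl2 alone, in both stages, against 22.2% of all genes in LP and 21.1% in Phase 1, so that 2 of 7 was near the share of all genes. Notch1-IC was listed there for none of the 7, against 0.789% of all genes in LP, 0.21% in Phase 1 and 0.109% in Phase 2.

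Among the Jun proteins, Jund had the highest-ranked start for RUNX1 and Med12, whereas for p300 in Phase 1 the start of Jun ranked higher (1270 against 1430 of 49116). The RUNX1 peak at the Jund start stood at rank 48 of 31995 in LP and at rank 56 of 38399 in Phase 1, and the Med12 peak at rank 10 of 30020 and rank 125 of 39132. The peak lay 0.17 kb before the GENCODE start, in the 5′ UTR of a longer transcript by the deposited annotation. The Phase 1 RUNX1 peak there held the palindromic cAMP response element, TGACGTCA, the only 1 of 62 Phase 1 RUNX1 peaks in the windows to do so (1.61%, against 1.18% of all Phase 1 RUNX1 peaks). A second Jund site, 3.43 kb before the start, ranked 172 for RUNX1 in LP and 1075 in Phase 1, and 401 and 1215 for Med12. For Junb, the start ranked 3449 for RUNX1 in LP and 4765 in Phase 1, but the highest-scored RUNX1 peak of its window lay 46.7 kb before the start, at the promoter of Get3, in both stages. The highest-scored CTCF peak around Junb was likewise at the promoter of a neighbour, Hook2, at rank 305 of 45388 in LP and rank 177 of 44793 in Phase 1. A pair of CTCF peaks lay toward the 3′ end of Junb in both stages, one inside the GENCODE gene body 3.12 kb after its start and the other across the end of the body at 4.31 kb. The deposited annotation placed both on a transcript of the neighbour Prdx2, the first at its end and the second in its 3′ UTR.

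Jun, whose product is the founding AP-1 subunit, had a single RUNX1 peak in LP, at its start (percentile 83, meaning that 83% of LP RUNX1 peaks scored as high or lower). The same site stood at percentile 91.6 in Phase 1. The Med12 peak there was at percentile 94.6 in LP, 98 in Phase 1, 97.2 with sgCont and 97.8 with sgCbfb. CTCF lay 1.14 kb before the start, at percentile 91.7 in LP and 92.5 in Phase 1. The one further RUNX1 site of Jun, 30.6 kb before the start, was listed in Phase 1 only, at percentile 14.5. It came with a Med12 peak at 45.7 and a p300 peak that were also absent from LP.

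Among the Fos proteins, the strongest sites of Fos and Fosb lay before the gene and not at its start. At 18.5 kb before Fos, RUNX1 stood at rank 1010 in LP and at rank 406 in Phase 1, Med12 at ranks 803 and 295, and p300 at ranks 2817 and 871. The Fos start stood lower, at percentile 80.8 of RUNX1 in LP and 88.5 in Phase 1. Fosb had strong sites at 6.6 kb (RUNX1 rank 475 in LP and 1114 in Phase 1) and at 10.1 kb before its start (rank 1690 and rank 940). A further one was in its first intron, 1.37 kb after the start (rank 1674 and rank 2772). In the window of Fosl2, which encodes Fra-2, the highest-scored RUNX1 peak lay 23.1 kb before the start, at percentile 91.9 in LP and 93.6 in Phase 1. A weaker one lay at 31.5 kb (85.6 and 87.9), and the deposited annotation assigned both to Gm51292 as the nearest start. Batf had no RUNX1 peak above percentile 70. Its start was at percentile 45.5 in LP and 64.1 in Phase 1, and its highest, 38.5 kb before the start, was at 69.9 in Phase 1.

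**Figure D2:**
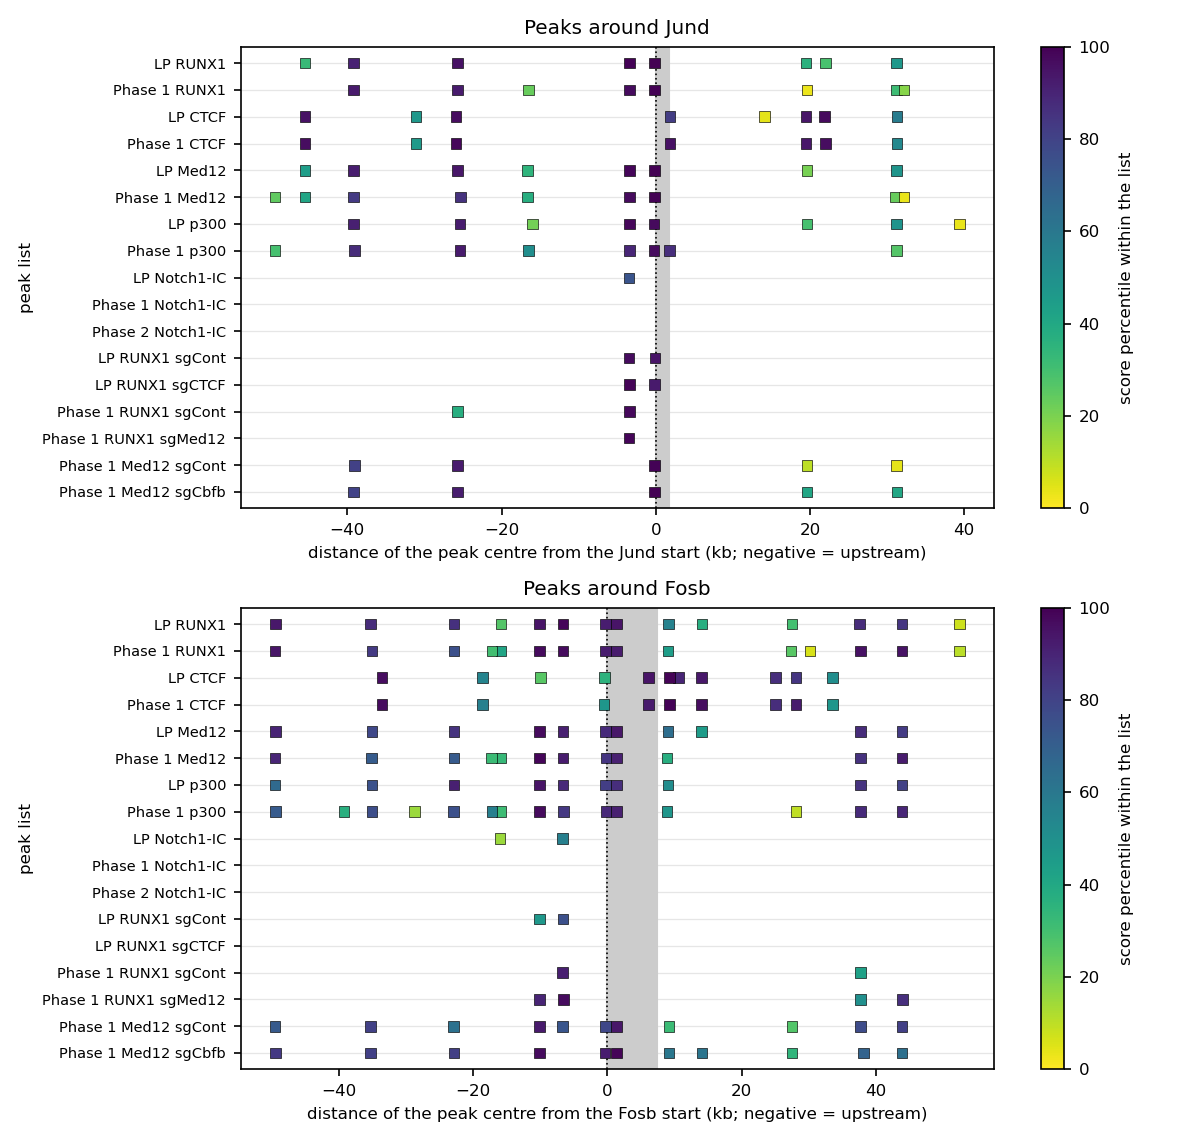
Each square is a peak, placed by the distance of its centre from the start of Jund (top) or Fosb (bottom) in kb, with 1 row per list; colour gives the score percentile within the list and the grey band the gene body. The Jund site 3.43 kb upstream was listed in all 4 RUNX1 lists from cells with guides and in LP Notch1-IC, but in neither Med12 list from such cells.

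Most peaks of the 7 windows were listed in both stages. Of the 56 LP RUNX1 peaks 9 had no overlapping Phase 1 peak (16.1%, 95% Wilson interval 8.69 to 27.8%, which here and below covers counting error only), against 16.8% of all LP RUNX1 peaks. Of the 62 Phase 1 RUNX1 peaks 15 had no LP peak (24.2%, 15.2 to 36.2%), against 30.7% of the whole list. For Med12 the shares were 7 of 49 in LP (14.3%, 7.1 to 26.7%) and 15 of 57 in Phase 1 (26.3%, 16.6 to 39%), where the whole lists had 19.5% and 38.2%. For p300 they were 6 of 51 (11.8%, 5.51 to 23.4%) and 19 of 64 (29.7%, 19.9 to 41.8%), where the whole lists had 20.7% and 41.6%. For CTCF they were 5 of 58 (8.62%, 3.74 to 18.6%) and 1 of 54 (1.85%, 0.328 to 9.77%), against 9.55% and 8.35%. Each whole-list share lay inside the interval of the windows, so with this number of peaks the AP-1 genes could not be told apart from the rest of the list in how many peaks were stage-specific. The RUNX1 shares moved with the choice of peaks: with a minimum score of 30 the Phase 1-specific share was 14.3% (6.72 to 27.8%, against 24.6% of the whole list so restricted), and with lists of equal length 13.5% (6.68 to 25.3%, against 22.3%). Over the peaks nearest to a member's own start the LP-specific share was 7.69% (2 of 26, 2.14 to 24.1%), against 16.5% of all LP RUNX1 peaks that lay within 50 kb of the gene with the nearest start. Over such peaks the LP-specific shares were 4.76% for Med12 (1 of 21, 0.846 to 22.7%) and 4.35% for p300 (1 of 23, 0.772 to 21%). The values to set beside them were 19.3% and 20.1%, each inside its interval.

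**Figure D3:**
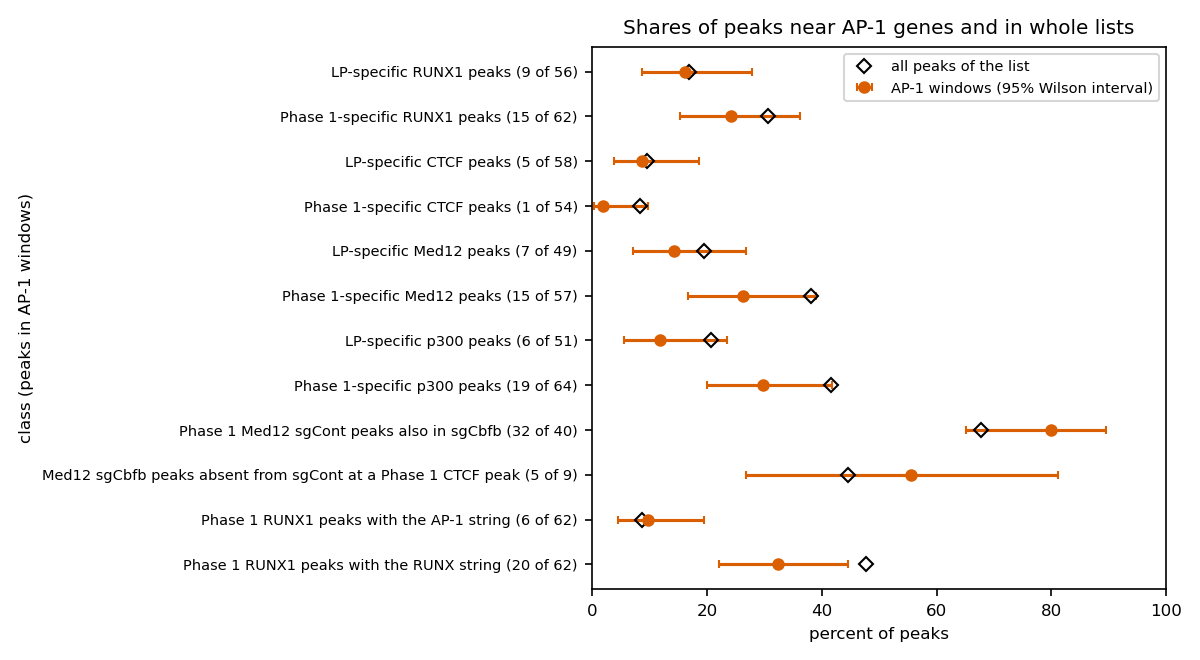
Percent of peaks in each class near the AP-1 genes (circles, with 95% Wilson intervals) and in the whole list (diamonds); counts stand beside each class. The diamond lay inside the interval in 11 of the 12 classes and above it for the RUNX string, which was in 32.3% of the Phase 1 RUNX1 peaks near the genes and 47.7% of the list.

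The stage-specific RUNX1 peaks were mostly weak ones. The 15 Phase 1-specific RUNX1 peaks had a median percentile of 16.6, against 81.8 for the peaks shared with LP, and the 9 LP-specific ones had 16.3 against 80.8. Over the whole lists the medians were 22.1 against 63.4 and 18.5 against 57.3. Every gene had at least 1 Phase 1-specific RUNX1 peak, Fosl2 4, Batf 3, Fos, Fosb and Jund 2 each, and Jun and Junb 1 each. Jun alone had no LP-specific RUNX1 peak, and the Fosl2 window had 3, all of them nearest to the start of Plb1. Stage-specific peaks of the other factors reached higher, with a Phase 1-specific p300 peak 1.76 kb after the Jund start at percentile 86.9 and a Phase 1-specific Med12 peak 2.12 kb after the Junb start at 79.2.

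The highest of the Phase 1-specific RUNX1 peaks lay 1.53 kb before Fos, at percentile 71.5, with a Phase 1-specific Med12 peak at 69.2, no p300 peak in either stage, and a RUNX core at position 100 of the printed run. Next came a site 21.8 kb before Fosl2, at percentile 54.7, which carried p300 but no Med12. An intronic site of Batf, 18.1 kb after its start, reached percentile 48 with no peak of any other list. The next were 17.2 kb before Fosb (percentile 30.2, with Med12 and p300) and 23.9 kb after Fos (24, with p300). Further Phase 1-specific RUNX1 peaks of these windows were at percentile 23.1 or lower.

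Of the 15 Phase 1-specific RUNX1 peaks 8 overlapped Phase 1 Med12 (53.3%, 30.1 to 75.2%), against 75% of all Phase 1-specific RUNX1 peaks, a value at the upper end of the interval. With a minimum score of 30 it was 2 of 6 (33.3%, 9.68 to 70%), against 72.2%, which lay above the interval. Of the 9 LP-specific RUNX1 peaks 6 overlapped LP CTCF (66.7%, 35.4 to 87.9%), against 36.8% of all LP-specific ones, a value inside the interval. The count moved with the setting, from 7 of 8 with a minimum score of 30 and 4 of 4 within 25 kb to 9 of 18 within 100 kb. Over peaks nearest to a member's own start it was 1 of 2. The 6 lay 14.1 kb after Fosb, 62 kb after Fosl2, 21.8 kb after Junb, 23.6 kb before Batf, and 45.5 kb before and 22 kb after Jund. Only the Batf one was nearest to the start of a member. All 6 sites had CTCF in Phase 1 as well, as did most LP CTCF peaks of the whole list, of which 9.55% were LP-specific. The highest LP-specific RUNX1 peak without CTCF lay 37.6 kb before Fos, at percentile 34.7, with Med12 at 54 and p300, all of them absent from Phase 1.

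Over all RUNX1 peaks near the AP-1 genes, 46 of 56 in LP overlapped Med12 (82.1%, 70.2 to 90%) and 47 overlapped p300 (83.9%, 72.2 to 91.3%), where the whole list had 84.7% and 90.8%. In Phase 1, 50 of 62 overlapped Med12 (80.6%, 69.1 to 88.6%) and 52 overlapped p300 (83.9%, 72.8 to 91%), where the whole list had 86% and 87.8%. CTCF overlapped 19 of 56 RUNX1 peaks in LP (33.9%, 22.9 to 47%) and 11 of 62 in Phase 1 (17.7%, 10.2 to 29%), where the whole lists had 23.2% and 15.7%. The single CTCF site that stood out by its score was 10.6 kb after Fosb, at percentile 89.6 in LP and with no overlapping peak in Phase 1. Above percentile 80 there were 28 LP CTCF peaks near the genes, and it was the only LP-specific one (3.57%, 0.633 to 17.7%), against 0.605% of all LP CTCF peaks above that percentile.

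At the shared sites the score percentile mostly stayed close between the stages. It was higher in Phase 1 by at least 25 points at 4 of 47 shared RUNX1 peaks (8.51%, 3.36 to 19.9%, against 10.3% of all shared RUNX1 peaks), 4 of 42 Med12 peaks (9.52%, 3.77 to 22.1%, against 15%) and 4 of 45 p300 peaks (8.89%, 3.51 to 20.7%, against 12.3%). It was lower by as much at 2 RUNX1 peaks (4.26%, 1.17 to 14.2%, against 2.64%), 3 Med12 peaks (7.14%, 2.46 to 19%, against 3.34%) and 1 p300 peak (2.22%, 0.393 to 11.6%, against 3.83%).

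The higher ones came largely from the region upstream of Fos. At 43.3 kb before the Fos start, RUNX1 was at percentile 43.5 in LP and at 81 in Phase 1, Med12 at 42.8 and 82.4, and p300 at 50.3 and 83. At 29 kb, RUNX1 was at 15.4 and 61.9, Med12 at 20.7 and 57.1, and p300 at 53.4 and 83. At 26.7 kb, RUNX1 was at 42.4 and 75.6, Med12 at 13.7 and 67.8, and p300 at 29.8 and 76.9. All 3 factors thus stood higher in Phase 1 at these 3 sites. They made up 3 of the 4 RUNX1, 3 of the 4 Med12 and 3 of the 4 p300 peaks with so large a difference. No LP-to-Phase 1 test was possible, since replicates were combined, and the percentiles are ranks within lists of different length.

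**Figure D4:**
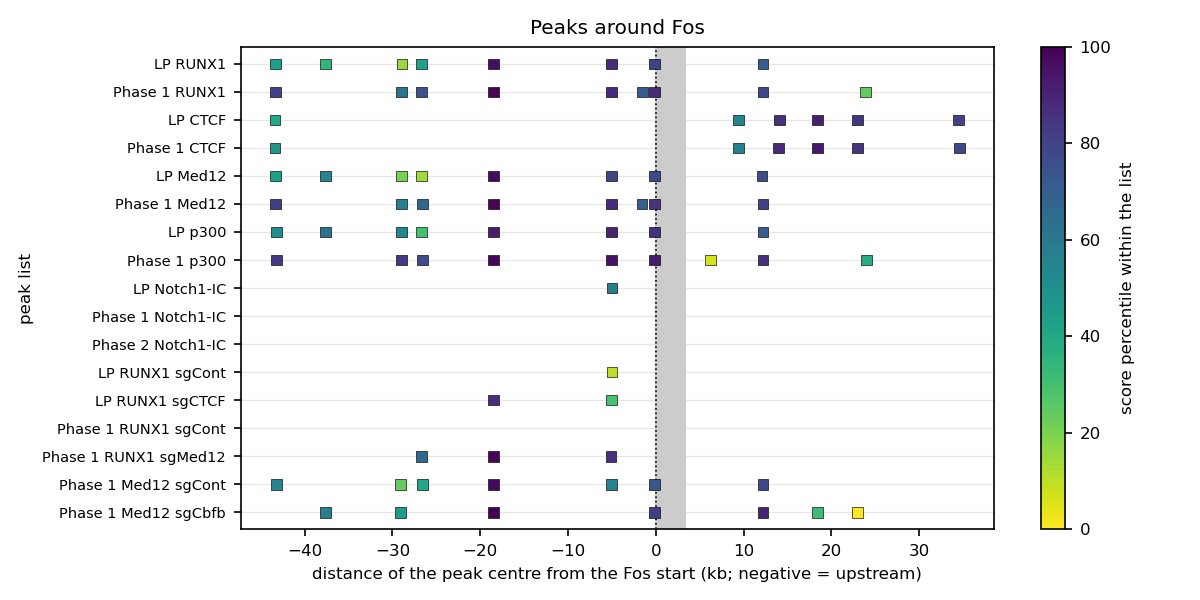
Peaks around Fos, 1 row per list, by distance from the Fos start in kb; colour gives the score percentile within the list and the grey band the gene body. The sites 43.3, 29 and 26.7 kb upstream are paler in LP than in Phase 1 for RUNX1, Med12 and p300, and the site 18.5 kb upstream is dark in both stages.

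The other RUNX1 site with a large difference was 25.7 kb before Batf, at percentile 0.434 in LP, next to the minimum score of the list, and at 55.4 in Phase 1, where Med12 (29.6) and p300 (66.3) were listed that LP lacked. The Med12 and p300 peaks about 56.5 kb after Fosl2 also stood higher in Phase 1, Med12 at percentile 29.2 against 2.89 and p300 at 62.3 against 18.1. The lower ones lay around Junb, Jund and Fosb at sites that also had CTCF. RUNX1 stood lower at 19.3 kb before Junb (49.7 in LP, 18 in Phase 1) and 19.5 kb after Jund (36 and 2.9). The same held for Med12 at 34.7 kb before Junb (39.7 and 0.749), 41.4 kb after Junb (38.2 and 1.12) and 9.02 kb after Fosb (64.1 and 37.2). The p300 peak 34.8 kb before Junb also stood lower, at 41.7 in LP and 12.1 in Phase 1. Of these sites, the one after Fosb alone had a member of the family as the nearest start by the deposited annotation. How often such lower peaks of the whole lists lay at CTCF was not computed. The part of CTCF in these differences was not tested.

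**Figure D5:**
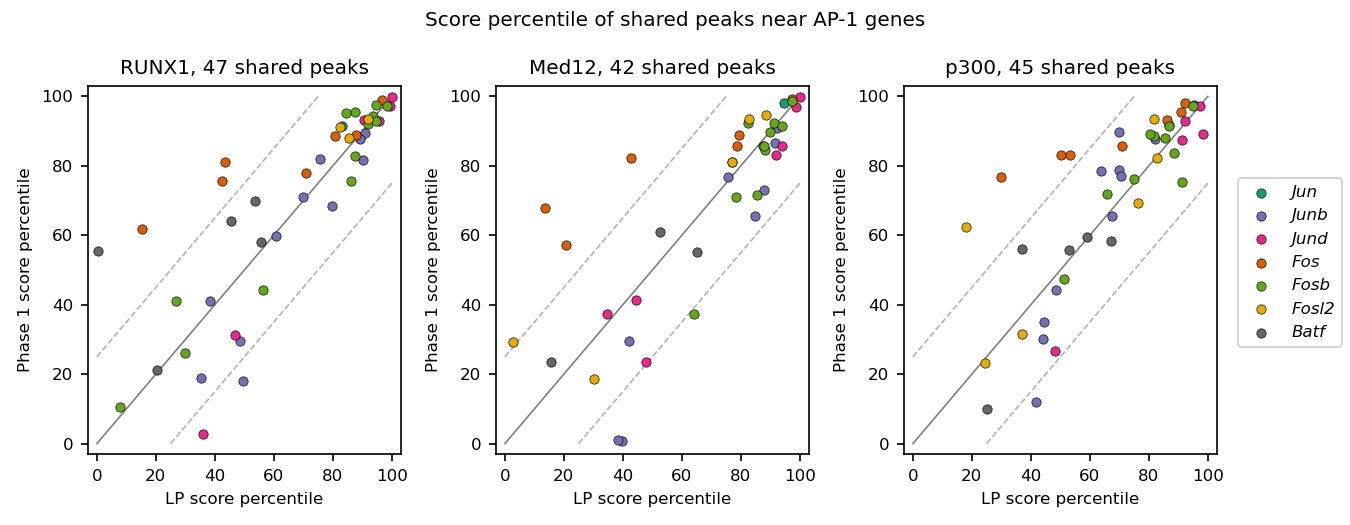
Score percentile of each shared peak near the AP-1 genes in LP (x axis) and Phase 1 (y axis) for RUNX1, Med12 and p300, coloured by gene; the solid line marks equal percentiles and the dashed lines a difference of 25 points. The 3 Fos points above the upper dashed line in each panel are the sites 43.3, 29 and 26.7 kb upstream.

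Notch1-IC was listed at 4 sites near the AP-1 genes, all in LP, the stage without Notch ligand: 3.44 kb before Jund (percentile 73.9 of 1585 peaks), 5.01 kb before Fos (57.4), 6.66 kb before Fosb (56.7) and 16 kb before Fosb (15.1). None of the 4 scored 30 or more. The Phase 1 list, with 152 peaks, and the Phase 2 list, with 352, placed none in the windows. Given their length this does not show that the receptor was absent there. All 4 LP sites lay on RUNX1 peaks of both stages, 4 of 56 LP RUNX1 peaks (7.14%, 2.81 to 17%), against 4.42% of all LP RUNX1 peaks. Over the whole lists 1414 LP RUNX1 peaks overlapped one of the 1585 LP Notch1-IC peaks, so lying on RUNX1 was common in that list. The share of all LP Notch1-IC peaks that lay on RUNX1 was not computed. Within 200 bases around the centre all 4 held a RUNX core (100%, 51 to 100%, against 61.6% of all LP Notch1-IC peaks), 1 held the AP-1 string (25%, 4.56 to 69.9%, against 6.44%) and 0 held GTGGGAA, the string of the Notch partner RBPJ (0 to 49%, against 4.42%). The sites before Jund and Fos and the nearer Fosb site were at RUNX1 percentiles of 99.5, 88 and 98.5 in LP and of 97.2, 89 and 97.1 in Phase 1, and the Fosb site at 16 kb at 26.9 and 41.1.

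The strings around RUNX1 peaks gave a mixed picture. The AP-1 string itself, TGAGTCA, which would be a site for the products of these genes, was in 6 of the 62 Phase 1 RUNX1 peaks near them (9.68%, 4.51 to 19.5%), against 8.66% of all Phase 1 RUNX1 peaks. Over the peaks nearest to a member's own start it was in 1 of 31 (3.23%, against 8.08% of all peaks within 50 kb of the gene with the nearest start), and over those scoring 30 or more in 2 of 42 (4.76%, against 7.19%). In LP it was in 2 of 56 (3.57%, 0.985 to 12.1%, against 5.77%). By class it was in 4 of the 15 Phase 1-specific peaks (26.7%, 10.9 to 52%, against 14.6% of all Phase 1-specific ones) and in 2 of the 47 shared ones (4.26%, 1.17 to 14.2%, against 6.01%). The 4 lay 17.2 kb before Fosb, 46.1 kb before and 56.5 kb after Fosl2, and 16.5 kb before Jund. The RUNX core was in 20 of 62 Phase 1 peaks (32.3%, 22 to 44.6%) and in 13 of 56 LP peaks (23.2%, 14.1 to 35.8%). The whole lists had 47.7% and 42%, both above the interval. GTGGGAA was in 1 of 62 Phase 1 peaks (1.61%, 0.285 to 8.59%, against 5.28%), and GAGGAAGT, a site of the ETS factor PU.1, in 2 of 62 (3.23%, 0.889 to 11%, against 8.62%). In the 250 bases before the RefSeq start, Batf alone of the 7 held any of these strings, with 2 RUNX cores. For Jund this stretch (chr8:70697489-70697738) lay before the GENCODE start at 70698949 and outside the peak at that start. For Fosl2 it (chr5:32136222-32136471) lay inside the GENCODE gene body. The GENCODE starts of these 2 genes were thus not covered by this search of promoters. The search around RUNX1 peaks did reach them. It found TGACGTCA before the Jund start, as given above, and none of the strings at the peak 0.178 kb before Fosl2. The core was present in 18.6% of the 32851 promoters of the table (GRCm38.p6), TGAGTCA in 4.46%, TGACGTCA in 1.55%, GTGGGAA in 5.42% and GAGGAAGT in 2.44%.

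Turning to cells with guides, RUNX1 was listed at few sites. The Jund site 3.43 kb before the start was in all 4 lists. It ranked 31 of 975 in LP with sgCont, 9 of 874 in LP with sgCTCF, 34 of 1550 in Phase 1 with sgCont and 26 of 2094 in Phase 1 with sgMed12. Among LP RUNX1 peaks near the AP-1 genes it was 1 of 56 in all 4 lists (1.79%, 0.316 to 9.45%), against 0.65% of all LP RUNX1 peaks. The Jund start was in both LP lists, at rank 52 with sgCont and rank 61 with sgCTCF, and in neither Phase 1 list.

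Of the 5 LP sgCont RUNX1 peaks near the genes 3 were also in sgCTCF (60%, 23.1 to 88.2%), against 59.1% of the whole list: both Jund sites and the Fos site at 5.04 kb. The Fosb sites at 6.64 and 10.1 kb were in sgCont and not in sgCTCF. Conversely 3 of 5 sgCTCF peaks were in sgCont (60%, 23.1 to 88.2%, against 65.9%), and the others were the Fos site at 18.5 kb and the Get3 promoter in the Junb window. The sgCont list held 975 peaks and the sgCTCF list 874, against 31995 from LP cells without guides. A site missing from either is thus not shown to lack RUNX1. The part of CTCF loss was not tested.

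In Phase 1, 3 of the 4 sgCont RUNX1 peaks were also in sgMed12 (75%, 30.1 to 95.4%, against 71%): the Jund site at 3.44 kb, the Fosb site at 6.66 kb and the promoter of Vasp, 37.7 kb after the Fosb start. The promoter of Lsm4, 25.7 kb before Jund, was in sgCont only. The sgMed12 list held 11 peaks near the genes, of which 3 were in sgCont (27.3%, 9.75 to 56.6%, against 52.6%). Among the 8 others, the Fos site at 18.5 kb ranked 32 of 2094. The rest were the Fos sites at 26.7 and 5.09 kb, the Fosb site at 10.1 kb, a site 44 kb after Fosb, the Fosl2 site at 23.1 kb, the Junb start and the Get3 promoter. All 3 Fos sites of this list lay before the gene, while the sgCont list of the same stage had none around Fos. The sgCont list was the shorter of the 2, with 1550 peaks, and the Phase 1 list from cells without guides held 38399. A site missing from the sgCont list is thus not shown to lack RUNX1. The paper states that its ChIP-seq of cells deficient in these factors used minimal cell numbers and was noisier than usual. The part of Med12 loss was not tested.

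Med12 in Phase 1 cells with sgCont was listed at 40 peaks near the genes, and 32 of them were also in sgCbfb (80%, 65.2 to 89.5%), against 67.8% of the whole list. All 40 lay on a Phase 1 RUNX1 peak, the 32 in both lists (100%, 89.3 to 100%, against 94.8%) as well as the 8 not in sgCbfb (100%, 67.6 to 100%, against 93.6%). Those 8 were the Fos sites at 43.2, 26.6 and 5.04 kb before the start, the Fosb site at 6.66 kb, the Fosl2 site at 31.5 kb, the Batf site at 38.5 kb, the Batf start and the Vasp promoter. In sgCont their percentiles ran from 4.55 (Batf, 38.5 kb) to 77 (Vasp). At the Vasp promoter sgCbfb had a Med12 peak of its own beside the sgCont one, 38.2 kb after the Fosb start and without overlap. The starts of Jun, Junb, Jund, Fos, Fosb and Fosl2 had Med12 in both lists, where 40% of all genes had it with sgCont and 40.2% with sgCbfb. So did the Fos site at 18.5 kb, at rank 436 of 19053 with sgCont and rank 16 of 18099 with sgCbfb.

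The sgCbfb list held 41 Med12 peaks near the genes, 32 of them in sgCont (78%, 63.3 to 88%, against 71.4%). Of the 9 that sgCont lacked, 5 lay on a Phase 1 CTCF peak (55.6%, 26.7 to 81.1%, against 44.5% of all such peaks) and 2 on a Phase 1 RUNX1 peak (22.2%, 6.32 to 54.7%, against 38.6%). Of the 8 peaks in sgCont alone, 1 lay on CTCF (12.5%, 2.24 to 47.1%, against 13.6%), and of the 32 in both, 10 did (31.2%, 18 to 48.6%, against 27.2%). The 5 at CTCF lay 18.4 and 23 kb after Fos, 14.1 kb after Fosb, 62.1 kb after Fosl2 and 21.8 kb after Junb. The last 3 were places where LP, but not Phase 1, listed RUNX1 and Med12. Their nearest starts were those of Rtn2, Plb1 and Rtbdn. The Fos site 37.6 kb before the start followed the same order without CTCF: Med12 was listed in LP and in Phase 1 with sgCbfb (percentile 56.6), but neither in Phase 1 nor with sgCont. How often Med12 peaks of the whole sgCbfb list that sgCont lacked lay at such LP sites was not computed, so this order is not shown to be particular to these genes.

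The Med12 list with sgCont was shorter than the Phase 1 list from cells without guides, and 35 of the 57 Phase 1 Med12 peaks near the genes were in it (61.4%, 48.4 to 72.9%, against 45.4%). Of the 11 above percentile 90 of the Phase 1 list 10 were (90.9%, 62.3 to 98.4%, against 97.1%). The exception was the Jund site 3.42 kb before the start, at rank 1215 of 39132. Both Med12 lists from cells with guides lacked it, although both RUNX1 lists of that stage from such cells held it.

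Other genes of the pathway are given by counts only. A Phase 1-specific RUNX1 peak lay in the window of 7 of 7 AP-1 genes and of 4 of 5 other AP-1 bZIP genes (Fosl1, Batf2, Batf3, Jdp2 and Atf3). It lay in that of 6 of 9 further regulators and partners (Srf, Elk1, Elk4, Nfatc1, Nfatc2, Irf4, Irf8, Cops5 and Dusp1), against 52.3% of all protein-coding genes. An LP-specific one lay in the windows of 6 of the 7 AP-1 genes, 3 of the 5 bZIP genes and 6 of the 9 regulators, against 38.4%. LP Notch1-IC lay in the windows of 3 of the 7 AP-1 genes and of none of the 5 bZIP genes and 9 regulators, against 11.9% of all genes. Phase 1 Notch1-IC lay in the windows of 2 of the regulators, against 1.61%, and Phase 2 Notch1-IC in that of 1, against 2.68%. The windows of Jdp2 and Batf overlap, so they share peaks.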

How the data were processed

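ChIP-seq of RUNX1, CTCF, Med12, p300 and Notch1-IC was analysed as 17 deposited peak lists from 34 of 38 libraries. The authors aligned reads to mm10 with Bowtie (1.1.1) after bcl2fastq (1.8.4) and called peaks with HOMER, combining 2 replicates per list by reproducibility (IDR); the versions come from the submitters' processing notes. The deposited score of a peak is HOMER's (minimum 15 in each list) and was compared only within a list, as a rank or percentile. The deposited fraction in the focus ratio column was not used. The deposited start and end positions were used as given. Peaks were assigned to a gene window by their centre, and shared meant an overlap of 1 bp or more. Windows came from GENCODE M21, nearest starts from the deposited annotation matched to RefSeq, and sequence from GRCm38.p6, whose chromosome lengths contained every peak. Analyses used Python 3.11.15, pandas 2.3.3 and scipy 1.17.1; the overlap step was tested on simulated peaks. Shares carry 95% Wilson intervals over peaks, with no test. Neighbouring peaks are not independent.

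Members, lists and classes were chosen with earlier results of these data known. One of the pathway gene lists is not reported here. Single peaks were named when they were the highest of a list in a window, a Notch1-IC peak, a peak of a short guide list, one of the 2 highest stage-specific RUNX1 peaks of a window, a peak at a start, or a Med12 sgCont peak at RUNX1 missing from sgCbfb. Other peaks named in the text, the 25-point difference, the classes above percentiles 80 and 90, and the RUNX core, RBPJ and PU.1 strings were chosen after their values were seen. Alternatives were a minimum score of 30, a wider required overlap, lists of equal length, windows of 25 and 100 kb, promoter peaks left out, and peaks nearest to the member's start.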

Additional observations from a re-analysis of the deposited data

How the results depend on the processing

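Of 113 values recomputed for 17 results, 100 stayed inside the interval of the reported share (or within 1.5 times the count) and 13 moved. Some of the 100 could not have moved, since Notch1-IC counts of 0 in Phase 1 and Phase 2 stay 0 under any stricter setting. Others stayed inside wide intervals, such as 23.1 to 88.2% on 5 peaks, so the count of 100 is no measure of robustness. With a minimum score of 30, the Phase 1-specific RUNX1 share was 14.3%, no LP Notch1-IC peak was left (0), and the sgCont RUNX1 peaks also in sgMed12 were 100% of 2. With lists of equal length the Phase 1-specific RUNX1 share was 13.5%. Within 25 kb, LP-specific RUNX1 peaks with CTCF were 100% of 4 and the sgMed12 share 100% of 2; within 100 kb LP Notch1-IC peaks numbered 7. Without promoter peaks the sgMed12 share was again 100%. Counting only peaks nearest to the member's start, the LP-specific shares were 7.69% for RUNX1, 4.76% for Med12 and 4.35% for p300, the sgMed12 share 100%, and the AP-1 string share 3.23%. These last rest on 31 peaks or fewer, and the cause was not tested. No paired analysis was possible because each list combines its replicates, and for the same reason no replicate could be left out.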
